A study of Mus musculus with 25 samples.

Results

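The choroid plexus genes described here are 10 genes, Ttr, Kl, Folr1, Clic6, Aqp1, Cldn2, Otx2, Slc4a5, Enpp2 and Sostdc1, selected by symbol as genes of choroid plexus epithelium, out of 24421 genes listed in each of the authors' 4 deposited tables. All 10 occur in every table, with a mean normalized count over 10, the authors' lower limit for testing. The choroid plexus is a folded epithelium inside the brain ventricles that secretes cerebrospinal fluid, carries nutrients and hormones from blood into that fluid, and closes the blood side off with tight junctions. The third ventricle runs through the midline of the hypothalamus. Whether and how this epithelium came into the dissected tissue was not tested.

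The RNA came from hypothalamus, the brain region of feeding and hormone control, of 25 wild-type C57BL/6J mice aged 3 months, in 8 groups. Dams were fed a hypercaloric diet (HCD), with 52% fat and much sucrose, or a regular chow diet (RD). Feeding began 1 month before mating and lasted to weaning, when pups received HCD or RD in turn. Groups are named by the diet of the dam and then that of the offspring. The comparisons were HCD-HCD Male with RD-HCD Male (HCD-weaned males), HCD-HCD Female with RD-HCD Female (HCD-weaned females), HCD-RD Male with RD-RD Male (RD-weaned males) and HCD-RD Female with RD-RD Female (RD-weaned females). By the labels RD-RD Male has 4 samples and each other group 3. The deposited files of RD-weaned males hold 6 library columns for these 7 labelled samples, so the number tested there may be 6. The labels do not say which mice shared a dam, so the p-values measure only the spread between these samples. No group enters more than 1 comparison.

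The values come from the authors' 4 deposited tables, which give for each gene a mean normalized count over the libraries of a comparison, a log2 fold change with its standard error (SE), and a Wald test with a Benjamini-Hochberg adjusted p. Values of single libraries were not used here, because their column names match no sample label, so neither levels by group nor an SD between mice are given. The mean normalized counts sum to between 15402649 and 26951335 per table, and the depth of each library is not used here. Positive values were taken to mean higher expression with an HCD dam. The labels name RD-dam groups as control among HCD-weaned offspring, whereas among RD-weaned offspring only the order of the group names was available. Should a table run the other way, all of its signs turn.

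The tissue held markers of several neighbouring regions. In the authors' deposited tables the 18 markers of hypothalamic neurons summed to between 202.5 and 527.7 CPM (mean normalized counts per 1000000 in a table), with 2 to 6 of them under a mean of 10 in a table, while 10 markers of striatum neurons summed to between 1117.1 and 2035.2 CPM. The choroid plexus genes were detected in every table, and together they made up from 0.499% (RD-weaned females) to 0.661% (RD-weaned males) of all counts. In bulk tissue, fewer choroid plexus cells and less RNA per cell cannot be told apart.

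Ttr, which encodes transthyretin, the carrier of thyroxine and of retinol-binding protein in cerebrospinal fluid, accounted for 76.2% to 78.7% of that sum. Its level in the authors' deposited tables was 4311.5 CPM for HCD-weaned males, 4625.2 for HCD-weaned females, 5044.0 for RD-weaned males and 3923.0 for RD-weaned females. This made it the 3rd or 4th most abundant gene of each table. Enpp2, which encodes autotaxin, the secreted enzyme that makes lysophosphatidic acid, followed with 936.4 to 1367.6 CPM. Enpp2 is also expressed by oligodendrocytes. The other 8 genes together reached 142.1, 169.6, 203.3 and 128.7 CPM in the same order of tables. Kl had 40.1, 45.6, 50.2 and 35.5 CPM in that order. The 4 tables were normalized separately, so these levels were not tested against each other.

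Per length, the order was Ttr, then Enpp2, Folr1, Clic6, Kl, Sostdc1, Otx2, Aqp1, Cldn2 and Slc4a5, apart from swaps between neighbours. In HCD-weaned males Kl (7.83 CPM per kilobase) stood above Clic6 (7.45), and in HCD-weaned females Aqp1 (4.56) above Otx2 (4.38). Ttr stood at 3307.7 to 4252.9 and Slc4a5 at 0.960 to 1.89 CPM per kilobase of transcript. From Clic6 (7.45 to 13.2) through Kl (6.93 to 9.81), Sostdc1 (5.83 to 8.87), Otx2 (4.38 to 8.34) and Aqp1 (3.45 to 6.72) to Cldn2 (2.33 to 4.85), each range overlapped the next over the 4 tables. Of the 10 genes, 9 were highest in the table of RD-weaned males and 8 lowest in that of RD-weaned females. The exceptions were Folr1, highest in HCD-weaned females, Clic6, lowest in HCD-weaned males, and Otx2, lowest in HCD-weaned females. Between its highest and lowest table a gene differed from 1.29-fold (Ttr) to 2.08-fold (Cldn2).

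**Figure D1:**
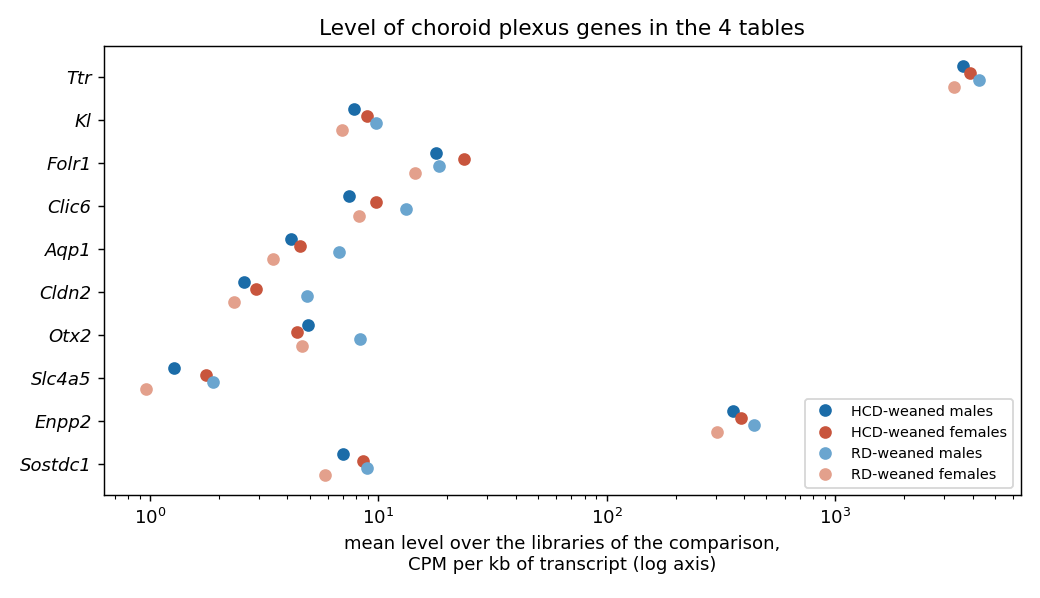
Level of each choroid plexus gene on a log axis, in CPM per kilobase of its longest coding transcript, as the authors' mean over all libraries of a comparison (1 point per comparison table, both maternal diets together). Ttr at 3307.7 to 4252.9 and Enpp2 at 302.6 to 441.9 stand far above the other 8 genes, none of which passes 23.6.

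In RD-weaned females, with the signs as read here, 9 of the 10 genes had a positive fold change and Kl rose. Kl encodes klotho, a membrane protein that serves as co-receptor for the hormone FGF23 and is also shed into cerebrospinal fluid. Kl lies on chromosome 5 from 150952607 to 150993817 in GRCm38. Its mean normalized count was 835.8 over the HCD-RD and RD-RD females together, and its log2 fold change was 1.01 ± 0.23 (SE) by the authors' deposited table, a 2.01-fold difference (adjusted p = 0.00867, Wald test). By its Wald statistic it ranked 6th from the top of 15028 genes tested in the authors' deposited table. Kl was the 1 choroid plexus gene of 10 that passed an adjusted p under 0.05, where 0.346% of all genes tested passed in either direction and 0.12% as positive.

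The carriers Ttr and Folr1 and the enzyme Enpp2 were positive without passing in RD-weaned females. Ttr had a log2 fold change of 0.84 ± 0.23 (SE) by the authors' deposited table, with an adjusted p of 0.0642, and ranked 19th by its Wald statistic. It passed when the statistic was divided by its robust spread over all genes (adjusted p = 0.0353, from the authors' statistics). That spread was 0.961, below 1, so the division raised every statistic. With the trend of the Wald statistic along transcript length removed, Ttr did not pass. Enpp2 stood at 0.59 ± 0.19 (SE; adjusted p = 0.163) by the authors' deposited table. Folr1, which encodes folate receptor alpha, the carrier of folate across the epithelium, stood at 0.68 ± 0.25 (SE; adjusted p = 0.383) by the authors' deposited table. Before adjustment 5 of the 10 genes had a p under 0.05 (Kl, Ttr, Enpp2, Folr1 and Aqp1), beside 6.16% of all genes tested. The median log2 fold change of the 10 genes was 0.57, against 0.01 over all genes tested in the authors' deposited table.

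Genes of water and ion movement were also positive without passing in these females. Aqp1, the water channel of the apical membrane, stood at 0.62 ± 0.27 (SE; adjusted p = 0.656) and Slc4a5, a sodium bicarbonate cotransporter gene, at 0.54 ± 0.29 (SE; adjusted p = 0.871) by the authors' deposited table. Cldn2, which encodes the pore-forming tight junction protein claudin-2, stood at 0.32 ± 0.29 (SE) and Clic6, an intracellular chloride channel gene, at 0.26 ± 0.25 (SE) by the authors' deposited table. Sostdc1, which encodes a secreted inhibitor of BMP and WNT signalling, stood at 0.35 ± 0.25 (SE) there. Otx2, the homeodomain transcription factor gene required for choroid plexus development, was the 1 negative value at -0.08 ± 0.26 (SE) by the authors' deposited table. The last 4 of these genes had an adjusted p of 1.00 each in the authors' deposited table.

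Upstream sequence from RefSeq (GRCm38.p6) was available for 5 of the 10 genes in 8 windows of 250 bases before an annotated start. The windows of Kl, the called gene, and of Aqp1 are shown 5′ to 3′ because both had an unadjusted p under 0.05 in RD-weaned females and their windows overlap no annotated exon. Both are on the plus strand, Kl at chr5:150952357-150952606 and Aqp1 at chr6:55336049-55336298. Capitals mark GGGCGG or its reverse complement CCGCCC, the GC box.
Kl: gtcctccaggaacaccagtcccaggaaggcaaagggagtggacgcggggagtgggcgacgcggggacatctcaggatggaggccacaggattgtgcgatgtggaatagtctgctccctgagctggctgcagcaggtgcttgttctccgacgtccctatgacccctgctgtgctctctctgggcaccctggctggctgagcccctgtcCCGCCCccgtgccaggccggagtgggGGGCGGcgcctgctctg
Aqp1: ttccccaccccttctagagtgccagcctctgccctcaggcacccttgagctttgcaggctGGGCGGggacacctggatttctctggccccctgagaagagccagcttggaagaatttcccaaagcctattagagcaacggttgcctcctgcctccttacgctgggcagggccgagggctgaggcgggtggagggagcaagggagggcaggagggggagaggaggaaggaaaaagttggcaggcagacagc
The Kl window held 2 GC boxes and a GC content of 66.8%, and the Aqp1 window 1 GC box and 62.0%. The Slc4a5 window, not shown, also held 1 GC box (GC content 62.8%), and those of Cldn2 and Otx2 held none. Thus 3 of the 8 windows held a GC box. Of all 32851 windows of that length, 32.7% held at least 1 GC box on either strand. GGATTA or its reverse complement TAATCC, the core recognised by OTX proteins, was found in neither window, nor in those of Slc4a5 and Cldn2, and in 1 of the 4 windows of Otx2, where 6.25% of all windows held it. No window of these genes held both motifs.

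In HCD-weaned females the sign, as read here, was mostly the other way, and none of the 10 genes passed. Should the RD-weaned female signs run the other way, both comparisons of females would be mostly negative. Negative values were found for 7 of the 10, with a median log2 fold change of -0.35, against 0.04 over all genes tested in the authors' deposited table. Sostdc1 had the lowest value, -0.91 ± 0.39 (SE; adjusted p = 0.253), and Enpp2 the lowest unadjusted p, at -0.54 ± 0.21 (SE; adjusted p = 0.173), by the authors' deposited table. These 2 of 10 genes had an unadjusted p under 0.05, beside 13.3% of all genes tested. After adjustment 0 of 10 passed, beside 1.52% of all genes tested.

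Of the other genes in the HCD-weaned females, Slc4a5 stood at -0.65 ± 0.41 (SE), Kl at -0.52 ± 0.35 (SE), Aqp1 at -0.36 ± 0.42 (SE) and Clic6 at -0.35 ± 0.31 (SE) by the authors' deposited table, with adjusted p from 0.527 to 0.858. Cldn2 (-0.16 ± 0.41, SE), Ttr (0.11 ± 0.30, SE), Otx2 (0.13 ± 0.44, SE) and Folr1 (0.29 ± 0.38, SE) lay within 1 SE of 0 in the authors' deposited table. The carriers Ttr and Folr1 were thus among the 3 positive values, and Aqp1, Slc4a5, Clic6 and Cldn2, of ion and water movement, were negative. Aqp1 also lay within 1 SE of 0, so this split rests partly on values that close to 0. With the trend of the Wald statistic along transcript length removed, Ttr, Folr1 and Otx2 turned to -0.13, -0.0231 and -0.0077.

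In HCD-weaned males, 0 of the 10 genes passed, beside 0.163% of all genes tested. The largest values belonged to the carriers. Folr1 stood at 0.82 ± 0.27 (SE; adjusted p = 0.323) and Ttr at 0.56 ± 0.25 (SE; adjusted p = 0.556) by the authors' deposited table, and these 2 of 10 genes had an unadjusted p under 0.05, beside 8.14% of all genes tested. Aqp1 followed at 0.37 ± 0.28 (SE), while Clic6 (-0.35 ± 0.27, SE) and Kl (-0.24 ± 0.28, SE) were lowest in the authors' deposited table. Enpp2 (0.08 ± 0.26, SE), Cldn2 (0.04 ± 0.28, SE), Slc4a5 (-0.01 ± 0.30, SE) and Otx2 (-0.03 ± 0.28, SE) lay near 0 in the authors' deposited table, and Sostdc1 stood at 0.22 ± 0.28 (SE). The median of the 10 genes was 0.06, against -0.01 over all genes tested in the authors' deposited table, and 6 of 10 were positive.

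In RD-weaned males the standard errors were the widest, from 0.39 to 0.45, and 0 of the 9 genes with a p passed, beside 0.0851% of all genes tested. None of the 9 had an unadjusted p under 0.05, beside 4.3% of all genes tested. Kl had the largest value at 0.65 ± 0.45 (SE; adjusted p = 1.00) and Otx2 the lowest at -0.58 ± 0.41 (SE; adjusted p = 1.00) by the authors' deposited table. Slc4a5 (0.30 ± 0.39, SE) and Enpp2 (0.25 ± 0.41, SE) came next in the authors' deposited table. Aqp1, Folr1, Sostdc1, Clic6 and Cldn2 lay between -0.08 and 0.10 in the authors' deposited table, each within 1 SE of 0. Ttr has a fold change of 0.03 ± 0.39 (SE) and no p-value in the authors' deposited table. There it was marked OK rather than low, with a mean normalized count of 77690.2. Whether a library with an extreme count entered these values of Ttr was not tested. The median of the 10 genes was 0.03, against 0.00 over all genes tested.

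**Figure D2:**
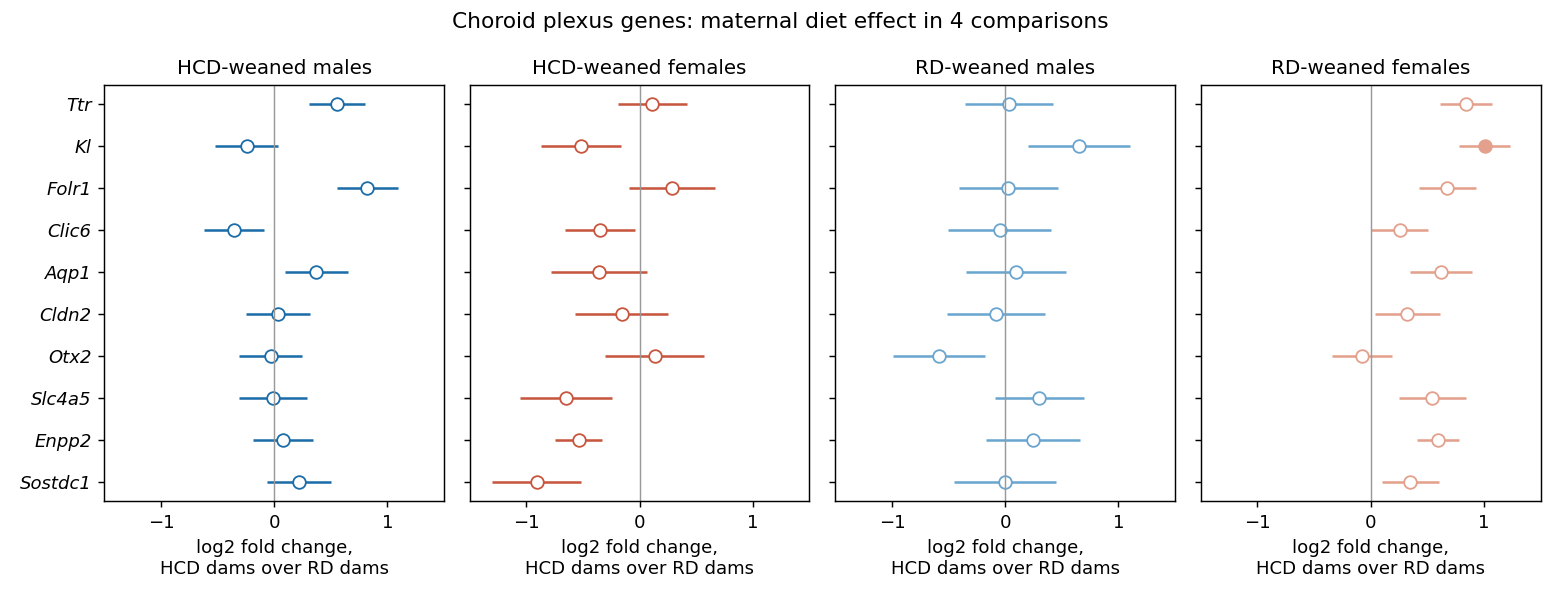
Log2 fold change of each choroid plexus gene (horizontal axis, HCD dams over RD dams) with its standard error as a bar, in 4 panels for the 4 comparisons of the authors' deposited tables. The filled point is Kl in RD-weaned females (1.01), the 1 value with an adjusted p under 0.05, and 9 of 10 points in that panel lie right of 0 against 3 of 10 in HCD-weaned females.

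From the lowest to the highest gene the log2 fold changes ran, in the authors' deposited tables, over -0.35 to 0.82 for HCD-weaned males, -0.91 to 0.29 for HCD-weaned females, -0.58 to 0.65 for RD-weaned males and -0.08 to 1.01 for RD-weaned females. Folr1 was the highest gene in both HCD-weaned comparisons and Kl in both RD-weaned ones, while Otx2 was the lowest in both RD-weaned ones. With the RD-weaned tables turned, Kl would be the lowest there and Otx2 the highest. Ttr and Folr1 were positive in 4 of 4 tables, and Clic6 and Otx2 in 1 of 4. With both RD-weaned tables turned, Ttr and Folr1 would be positive in 2 of 4, Clic6 in 1 and Otx2 in 3. Differences between genes within a table were not tested.

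Whether the maternal diet effect itself differed between sexes or between postnatal diets was tested here from the fold changes and standard errors that the authors deposited. The difference of 2 log2 fold changes was divided by its standard error and referred to the normal distribution, with p adjusted over all genes tested in both tables. Between HCD-weaned and RD-weaned females the difference was negative for 9 of 10 genes, with a median of -0.86, against 0.02 over all genes. From the authors' 2 female tables, Enpp2 had a difference of -1.13 ± 0.28 (SE; adjusted p = 0.0802, 95% interval -1.68 to -0.58). Kl, from the authors' same tables, had one of -1.52 ± 0.42 (SE; adjusted p = 0.224, 95% interval -2.35 to -0.70). Enpp2 passed when the statistics from the authors' tables were divided by their robust spread (adjusted p = 0.0355), a division that raised them. With the sign of the RD-weaned table turned, 6 of the 10 differences change direction, among them Kl (0.49) and Enpp2 (0.0567). Before adjustment 4 of 10 genes had a p under 0.05 (Enpp2, Kl, Sostdc1 and Slc4a5), beside 5% of all genes, and after it 0 of 10 passed, beside 0.00685% of all genes.

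The other 3 differences held 0 choroid plexus genes past the threshold. Between HCD-weaned males and females, 8 of 10 differences computed from the authors' tables were positive, and Sostdc1 had the largest, 1.13 ± 0.48 (SE; adjusted p = 1.00, 95% interval 0.18 to 2.07). It was the 1 gene of 10 with an unadjusted p under 0.05, beside 0.642% of all genes, and 0% of all genes passed after adjustment. That 0.642% is below the share that a threshold of 0.05 gives without effects, so these p-values may not be calibrated. Between RD-weaned males and females all 9 differences that could be tested were negative, from -0.65 for Folr1 to -0.24 for Slc4a5, with 0 inside each 95% interval, and 0.00791% of all genes passed. With the female table alone turned, 8 of these 9 become positive, up to 1.65 for Kl, and with the male table alone turned Otx2 does (0.66). Between HCD-weaned and RD-weaned males, Kl had the lowest difference (-0.89 ± 0.53, SE) and Folr1 the highest (0.79 ± 0.52, SE), with adjusted p of 0.978 for both, and 0.00775% of all genes passed. The unadjusted p was under 0.05 for 0 of 9 genes in each of the last 2 differences, beside 3.05% of all genes between RD-weaned males and females and 3.84% between HCD-weaned and RD-weaned males.

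**Figure D3:**
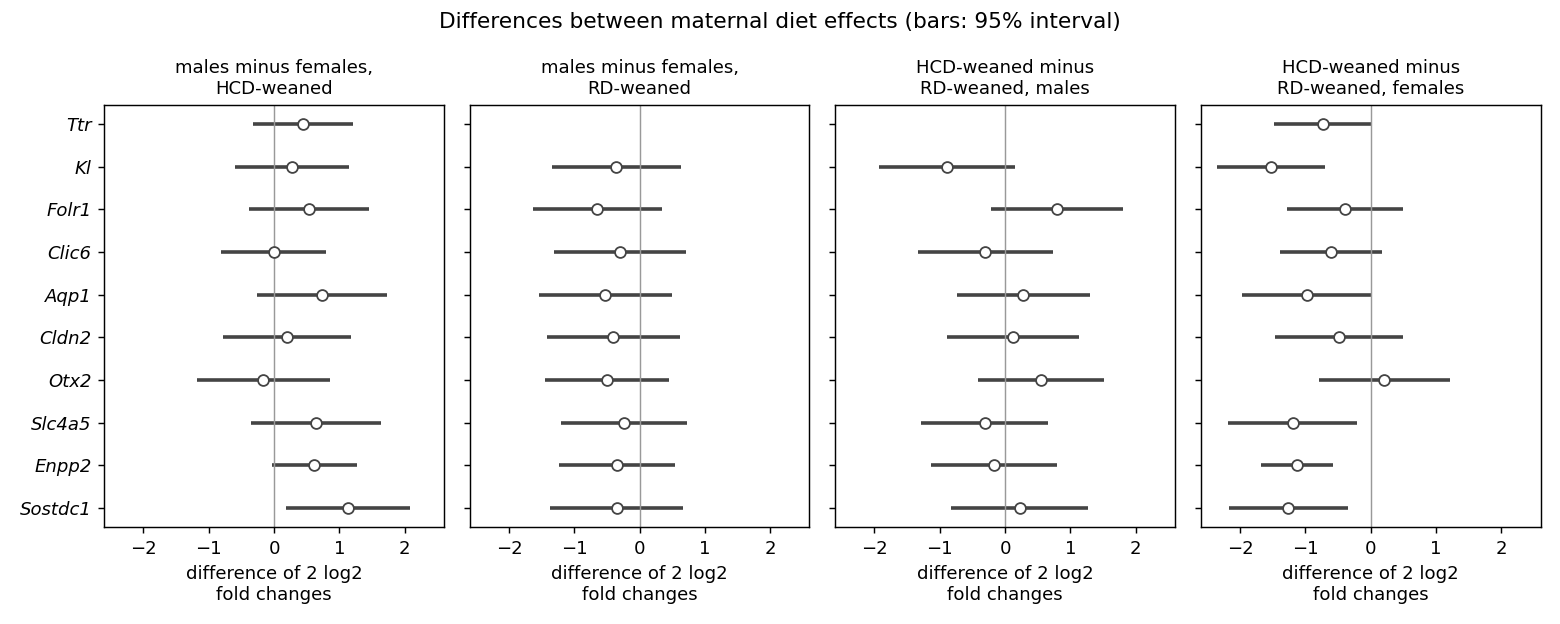
Difference between 2 maternal diet effects for each choroid plexus gene (horizontal axis, difference of 2 log2 fold changes, first named minus second) with its 95% interval as a bar. In the right panel, HCD-weaned minus RD-weaned females, the intervals of Kl, Slc4a5, Enpp2 and Sostdc1 lie below 0, and Ttr is missing where it has no p-value in the authors' deposited table.

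A further list of 34 choroid plexus genes was mostly positive in RD-weaned females. Like the 10 genes, it was chosen with earlier results of these data known, so it is no independent test. Of the 32 tested, 27 were positive and 1 passed, with a median log2 fold change of 0.24 in the authors' deposited table, and 10 had an unadjusted p under 0.05. Over all genes tested 50.9% were positive, 0.346% passed and 6.16% had an unadjusted p under 0.05. The called gene was Kcnj13, a potassium channel gene of the apical membrane, at 0.84 ± 0.22 (SE; adjusted p = 0.0479) by the authors' deposited table. Steap1 stood at 0.97 ± 0.27 (SE; adjusted p = 0.0813) and Msx1, a homeobox gene named after its value was seen, at 0.58 ± 0.25 (SE; adjusted p = 0.615) by the authors' deposited table. Of the 5 most abundant genes of the list, 4 were positive in these females. Igfbp2, which encodes an IGF binding protein, stood at 0.56 ± 0.27 (SE), Cab39l at 0.21 ± 0.20 (SE), Pcp4l1 at 0.06 ± 0.24 (SE) and the zinc transporter gene Slc39a12 at -0.19 ± 0.23 (SE) by the authors' deposited table, with adjusted p of 0.748 and above. Igf2, the growth factor gene, had 0.34 ± 0.23 (SE) and no p-value there.

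In the other comparisons the further list was divided between the signs. It held 12 positive and 21 negative genes in HCD-weaned females (median -0.10), where 3 of 33 had an unadjusted p under 0.05, beside 13.3% of all genes. The 1 called there, beside 1.52% of all genes, was Trpm3, a cation channel gene, at -1.33 ± 0.33 (SE; adjusted p = 0.0133) by the authors' deposited table. Trpm3 did not pass with the Wald statistic divided by its robust spread over all genes, 1.12 in that comparison. The list held 18 positive and 15 negative genes in HCD-weaned males (median 0.09) and 15 positive and 16 negative in RD-weaned males (median -0.04). In both 0 were called, beside 0.163% of all genes in HCD-weaned males and 0.0851% in RD-weaned males. In HCD-weaned males 6 of 33 had an unadjusted p under 0.05, beside 8.14% of all genes, and in RD-weaned males 0 of 31 did, beside 4.3% of all genes.

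Over the 4 log2 fold changes, the 3 genes nearest to Kl by Euclidean distance among 12604 genes with an adjusted p in all tables were Kcnj13 (distance 0.38), Zbtb18, a zinc finger repressor gene (0.45), and Plxnd1, a semaphorin receptor gene (0.49). Kcnj13 stood at 0.09, -0.48, 0.68 and 0.84 in HCD-weaned males, HCD-weaned females, RD-weaned males and RD-weaned females in the authors' deposited tables, where Kl had -0.24, -0.52, 0.65 and 1.01. The 3 nearest to Ttr were Fam19a1, which encodes a secreted brain protein (distance 0.24), Grp, the gastrin-releasing peptide gene (0.35), and Steap1 (0.36). These distances describe 4 comparisons and carry no test.

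Genes that work with the named carriers and receptors gave 0 calls in most lists. Among all genes tested, the called share was highest for HCD-weaned females, at 1.52%. The table of RD-weaned females had 0.346% of all genes called and 50.9% positive. At such shares lists this short would mostly hold 0 calls, so a count of 0 says little about these genes. Of 18 genes of klotho and FGF receptor signalling, 9 to 11 were tested in a table and 0 passed in any, with 5 of 10 positive in RD-weaned females (median -0.01) by the authors' deposited table. Fgfr1, a receptor that klotho joins, named after its value was seen, stood at -0.12 ± 0.19 (SE; adjusted p = 1.00) for RD-weaned females by the authors' deposited table. Thyroid hormone and retinol handling had 11 of 14 positive genes in RD-weaned females (median 0.16), folate handling 8 of 12 (median 0.11), lysophosphatidic acid signalling 7 of 10 (median 0.03) and BMP and WNT signalling 7 of 16 (median -0.02), with 0 called in the 4 tables. Ion and water transport for fluid secretion had 11 of 17 positive genes in RD-weaned females (median 0.14) and 0 called there, against 2 negative calls of 18 genes in HCD-weaned females, by the authors' deposited table. The lower p of these 2 belonged to Aqp4, the astrocyte water channel gene, at -1.25 ± 0.33 (SE; adjusted p = 0.0229) by the authors' deposited table. Claudins and tight junctions had 5 of 12 positive genes and 0 called in RD-weaned females, and 1 called in HCD-weaned females, the scaffold gene Tjp1 at -1.39 ± 0.37 (SE; adjusted p = 0.0227) by the authors' deposited table. Neither Aqp4 nor Tjp1 passed in HCD-weaned females with the Wald statistic divided by its robust spread over all genes (1.12).

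Marker lists of neighbouring cells and regions had medians away from 0 in the comparison in which Kl was called. Over all genes tested there, 0.346% passed. In RD-weaned females 10 of 11 markers of cortex and hippocampus neurons were positive (median 0.84, 1 called), as were 10 of 10 of striatum neurons (median 0.40, 0 called) and 10 of 12 of oligodendrocytes (median 0.24, 0 called) by the authors' deposited table. Among markers with an adjusted p, negative values were found for 13 of 13 of hypothalamic neurons (median -0.31, 0 called), 9 of 11 of thalamus and habenula neurons (median -0.43, 2 called) and 11 of 12 of ependymal cells, the ciliated lining of the ventricle (median -0.26, 0 called), in the authors' deposited table. Meningeal fibroblasts (6 of 10 positive, median 0.06), endothelial and mural cells (6 of 11, median 0.07) and tanycytes (6 of 9, median 0.02) stood near 0 with 0 called in the authors' deposited table. Of the hypothalamic list 5 of 18 markers had no adjusted p, among them Pomc, the proopiomelanocortin gene, at 0.36 by the authors' deposited table. The called genes were Spink8 (1.497 ± 0.296, SE) of the cortex and hippocampus list, and Gpr151 (-1.57 ± 0.29, SE) and Calb2 (-1.32 ± 0.28, SE) of the thalamus and habenula list, by the authors' deposited table. Over the 4 tables, ependymal markers summed to 147.4 to 220.9 CPM and oligodendrocyte markers to 19834.7 to 22490.8 CPM. No marker of these lists had a mean count of 0 in RD-weaned females. The part of these tissues in the values of Kl, Ttr and Enpp2 was not tested.

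In HCD-weaned females, where Enpp2 was negative, 9 of 12 oligodendrocyte markers were negative too (median -0.14, 1 called), while ependymal markers had a median of -0.10 and cortex and hippocampus markers one of 0.44 in the authors' deposited table. In HCD-weaned males, hypothalamic neuron markers had 15 of 16 negative values (median -0.85, 5 called) beside a choroid plexus median of 0.06 in the authors' deposited table. Over all genes tested, 1.52% passed in HCD-weaned females and 0.163% in HCD-weaned males. The part of these markers in the choroid plexus values was not tested.

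**Figure D4:**
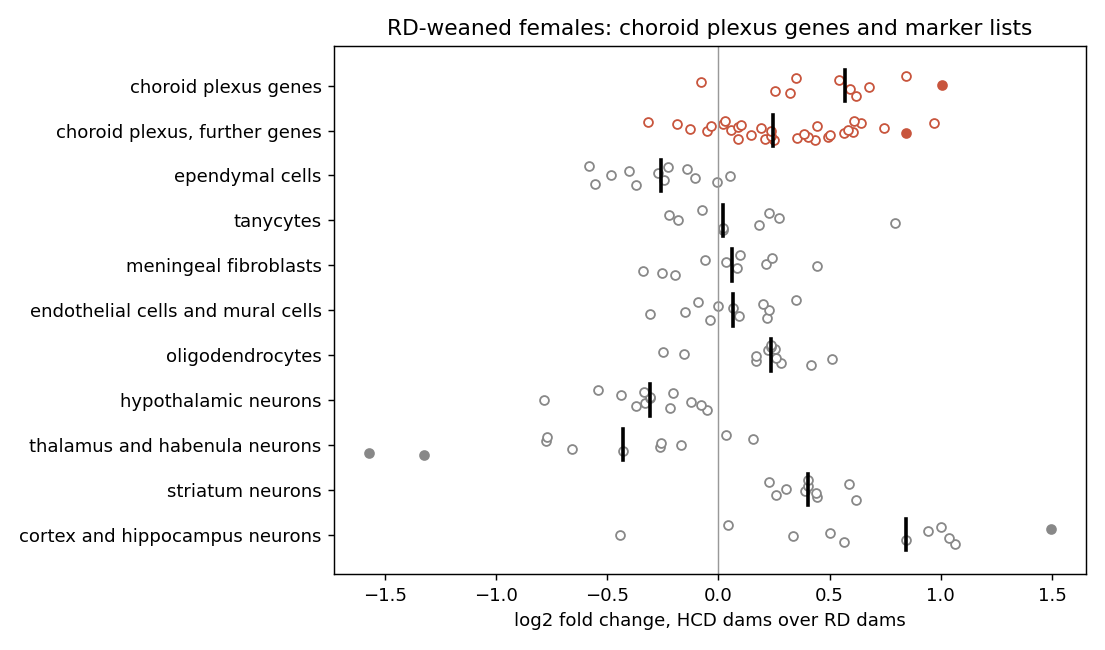
Log2 fold change (horizontal axis, HCD dams over RD dams) of every tested gene of the choroid plexus lists and of 9 marker lists in RD-weaned females, from the authors' deposited table. Black bars are list medians and filled points have an adjusted p under 0.05. The 10 choroid plexus genes centre on 0.57 and the further choroid plexus genes on 0.24, between the ependymal markers at -0.26 and the cortex and hippocampus markers at 0.84.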

How the data were processed

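RNA was sequenced as stranded mRNA libraries (TruSeq), per the labels' protocols. DESeq and build mm10 are named by the submitters' processing notes, and no aligner, counter or annotation is given in the sources. The authors deposited 4 comparison tables, whose headers give a mean normalized count (signal), a log2 fold change with its SE, a Wald statistic (score), a p-value and an adjusted p-value. Whether the authors shrank the fold changes is not stated in the sources. Genes with almost no counts carry small values with small SEs, the pattern of fold changes shrunk towards 0. Nr5a1 in RD-weaned females, with a mean of 0.739, stands at -0.0175 ± 0.0864 (SE). The fold changes, their differences and the distances given here would then rest on shrunken values. The 8 other deposited files hold 48 library columns whose names match no label, and were not used. A count test, planned only for mapped libraries, was therefore not run, and the authors' Wald test is the main one.

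CPM values are mean normalized counts over their sum in a table, times 1000000. Lengths are those of the longest coding transcript (GENCODE M21). Differences between tables were computed here with two-sided normal p-values and Benjamini-Hochberg adjustment (Python 3.11.15, SciPy 1.17.1). This step was tested on simulated effects drawn with the deposited SEs and without shrinkage. That setting may differ from the deposited values, so the simulation does not show that the p-values are calibrated on them. Alternatives were other thresholds, filters on the mean, scalings, centring, a length correction and a turned sign.

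The members and lists were chosen with earlier results of these data known. All 257 list entries occur in the tables, 3 of them under older symbols. Text names were drawn by a rule from the 10 members and the list genes called at 0.05 (at most 5 a comparison). The rule also took the 5 most abundant further choroid plexus genes and the 3 genes nearest to Kl and to Ttr. Not every called gene that the rule allowed is named. Msx1, Fgfr1, Pomc and Nr5a1 are named outside the rule. Otx2 shares exons with the antisense gene Otx2os1, and as the use of strand in counting is not stated in the sources, their reads may not be separable.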

Additional observations from a re-analysis of the deposited data

How the results depend on the processing

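The call of Kl in RD-weaned females held under all 7 alternatives run, with adjusted p from 0.00372 to 0.0107. All 7 start from the same deposited statistics and none leaves out a library. The looser threshold of 0.10 could not remove the call in RD-weaned females. The number of choroid plexus genes called there became 2, with Ttr, at an adjusted p under 0.10 and with the Wald statistic divided by its robust spread (adjusted p of Ttr 0.0353, and 0.120 with the trend along transcript length removed). The number of differences called between HCD-weaned and RD-weaned females became 1, Enpp2, under the same 2 settings (adjusted p = 0.0355 with the robust spread, from the authors' 2 tables). The Wald statistic fell with transcript length in the HCD-weaned tables (Spearman's rho of -0.57 in males and -0.46 in females, over genes that are no independent replicates). It also fell in RD-weaned females (rho of -0.22), while RD-weaned males had a rho of 0.09. Removing that trend turned values near 0: Slc4a5 to 0.20 in HCD-weaned males, Ttr to -0.13, Folr1 to -0.0231 and Otx2 to -0.0077 in HCD-weaned females, and Sostdc1 to 0.0525 in RD-weaned males. Centring each table turned the Clic6 difference between HCD-weaned males and females to 0.041. If the sign of 1 RD-weaned table is turned, some differences turn. Between RD-weaned males and females a turned male table turns Otx2 (0.66), and a turned female table, tried after seeing the data, turns Kl (1.65), Folr1 (0.71), Clic6 (0.21), Aqp1 (0.72), Cldn2 (0.24), Slc4a5 (0.85), Enpp2 (0.84) and Sostdc1 (0.35). Turning the RD-weaned table turns, between postnatal diets in males Kl (0.41), Cldn2 (-0.0454), Otx2 (-0.61), Slc4a5 (0.29) and Enpp2 (0.33), and in females Ttr (0.96), Kl (0.49), Folr1 (0.97), Aqp1 (0.26), Cldn2 (0.16) and Enpp2 (0.0567), with 0 choroid plexus genes called. No paired analysis was possible because the result comes from the authors' tables and the library columns carry no replicate number. For the same reason leaving out libraries, DESeq2 and a count filter were not run. Over all genes, the 25 calls of HCD-weaned males became 16 with a mean of at least 100 and 3 with the robust spread. The 229 of HCD-weaned females became 450 at an adjusted p under 0.10, 56 with the robust spread and 55 without the length trend. The 11 of RD-weaned males became 23 at that threshold and 74 with the robust spread, and the 52 of RD-weaned females became 90 at that threshold. The single gene called for the female difference became 12 at that threshold or with the robust spread, and 186 with the sign turned. A turned sign also moved the count from 1 to 14 between RD-weaned males and females, for either table, and from 1 to 4 between postnatal diets in males, and the robust spread moved it from 0 to 3 between HCD-weaned males and females. RD-weaned males had the lowest summed mean counts (15402649) and the largest SE (0.45).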
